A study of Mus musculus with 12 samples.

Results

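miR-21a-5p, miR-210-3p and miR-34a-5p are 3 mature miRNAs that are often studied in cancer. They were chosen by name, as the entries MIMAT0000530, MIMAT0000658 and MIMAT0000542 of the mouse miRNA tables, and are 3 of the 874 mouse miRNAs listed in at least 1 of 12 serum libraries. A library in which an entry was not listed was given a count of 0.

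The libraries were made from 6 sera of 3 female athymic immunodeficient NCr nude mice (mice 1046, 1047 and 1069), in which orthotopic neuroblastoma xenografts were generated at an age of 4 to 6 weeks. Each mouse was bled before and 2 weeks after 1000000 human SH-SY5Y cells, an established neuroblastoma cell line, were placed under its renal capsule. RNA from 50 μl of each serum was divided into 2 aliquots, of which one was depleted, with biotinylated probes and streptavidin beads, of the abundant 5′ fragments of cleaved tRNAs, and the other was left undepleted. This gave 4 groups of 3 libraries, namely before injection depleted, after injection depleted, before injection undepleted and after injection undepleted. All mice received tumor cells by surgery. The presence of a tumor, the surgery, the earlier bleeding and the time that had passed therefore cannot be told apart.

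miRNAs are short RNAs that guide Argonaute proteins to messenger RNAs, mainly through pairing of the seed, bases 2 to 8 counted from the 5′ end, and thereby lower the output of their targets. They leave cells in vesicles and protein complexes and are stable in serum, where blood cells are a major source. miR-21 is abundant in most tissues, is raised in many solid tumors and targets the tumor suppressor PDCD4. miR-210 is induced by the hypoxia-inducible factor HIF-1 and is a common marker of low oxygen. miR-34a is transcribed under control of p53, and in neuroblastoma it is known for targeting MYCN and for lying in the chromosome arm that is often lost in this tumor.

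The 3 mature sequences are shown with the seed in capitals, since the seeds tell which other miRNAs are relatives. All 3 were matched by name to RefSeq on GRCm38.p6.
miR-21a-5p: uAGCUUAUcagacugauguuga
miR-210-3p: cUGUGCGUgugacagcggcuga
miR-34a-5p: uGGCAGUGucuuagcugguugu
Each is 22 bases long. Ligation bias between sequences remains when their read counts are set side by side. The seeds differ, and pairs of the 3 sequences were identical at 5 to 10 of the 22 positions. They also differ in base composition, with 8, 14 and 11 G or C bases in miR-21a-5p, miR-210-3p and miR-34a-5p, respectively.

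The relatives by seed differ in how close they come to the member itself. The seed of miR-21a-5p is shared by miR-21c, whose first 15 bases are identical to those of miR-21a-5p. No mature mouse sequence in the reference shared the seed of miR-210-3p. The seed of miR-34a-5p was found in miR-34b-5p, miR-449a-5p and miR-449c-5p, of which miR-449a-5p shares the first 9 bases with it and the others differ at the first base.
miR-21c: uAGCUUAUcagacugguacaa
miR-34b-5p: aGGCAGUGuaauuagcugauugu
miR-449a-5p: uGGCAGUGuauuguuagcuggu
miR-449c-5p: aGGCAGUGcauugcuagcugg
Reads of 15 bases or more were kept, so only a read that ends at base 15 of miR-21a-5p could match both miR-21a-5p and miR-21c. No other annotated hairpin held 15 consecutive bases of any of the 3 miRNAs. The tables name miRNAs by accession only, so counts of these relatives are not given.

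The 3 genes lie on different chromosomes of GRCm38. Mature miR-21a-5p is at chr11:86584120-86584141 on the minus strand, in a hairpin (Mir21a) that GENCODE M21 places inside the last exon of Vmp1, a gene of autophagosome formation, within an untranslated region that runs from 86583865 to 86585310. Mature miR-210-3p is at chr7:141221407-141221428 on the minus strand, where Mir210 is the only gene annotated over the hairpin. Mature miR-34a-5p is at chr4:150068473-150068494 on the plus strand. The last bases of the Mir34a hairpin overlap an exon of Gm37795, which starts at 150068539 and does not reach the mature miRNA.

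The depth set how well each miRNA could be measured. Depleted libraries held between 938706 and 2271549 mouse miRNA counts, and undepleted ones between 21235 and 97183. One read was therefore worth 0.440 to 1.07 RPM (mouse miRNA reads scaled to 1000000 per library) in depleted libraries and 10.3 to 47.1 RPM in undepleted ones. Mouse 1069 before injection gave the shallowest library, from the undepleted aliquot. RPM is a share of all mouse miRNA reads, so a miRNA can gain share because others lose it.

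miR-21a-5p was by far the most abundant of the 3. Before injection its level in depleted libraries was 18493 RPM in mouse 1046, 18565 RPM in mouse 1047 and 20147 RPM in mouse 1069. After injection the same mice had 30847, 28536 and 29418 RPM. The 2 time points did not overlap, and the 3 mice lay close together within each of them. By RPM, 29.0% of the tested miRNAs were likewise entirely higher after injection.

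The undepleted aliquots of the same sera gave nearly the same levels of miR-21a-5p. They were 18429, 17511 and 20203 RPM before injection, and 28779, 28199 and 26151 RPM after it, in mice 1046, 1047 and 1069, respectively. Again they did not overlap, and 27.8% of the tested miRNAs were likewise entirely higher after injection. In reads, this was 429 to 1961 per undepleted library against 18912 to 66825 per depleted library. miR-21a-5p ranked between the 12th and the 14th most counted miRNA in every library drawn before injection and between the 8th and the 10th in every library drawn after it.

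miR-210-3p was present at a far lower level. In depleted libraries it was at 257, 239 and 203 RPM before injection and at 275, 227 and 230 RPM after it, in mice 1046, 1047 and 1069. The 2 time points overlapped. In undepleted libraries the levels were 349.9, 333 and 188 RPM before injection, the last of them resting on 4 reads with a 95% Wilson interval from 73.3 to 484 RPM, and 323, 404 and 384 RPM after it. Those 6 libraries held 4 to 34 reads of miR-210-3p each, so the intervals of single libraries overlap widely. Such intervals cover counting error only, since reads amplified by PCR are not independent molecules.

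miR-34a-5p was close to the limit of detection. Depleted libraries held 7, 8 and 15 reads before injection and 11, 11 and 47 reads after it, in mice 1046, 1047 and 1069. This corresponds to 5.19, 4.39 and 16.0 RPM before and 6.18, 6.32 and 20.7 RPM after injection. The serum of mouse 1069 had the highest level at both time points. Its Wilson interval after injection, 15.6 to 27.5 RPM, lay above those of mouse 1046 (3.45 to 11.1 RPM) and mouse 1047 (3.53 to 11.3 RPM). Before injection its interval, 9.68 to 26.4 RPM, overlapped that of mouse 1046 (2.51 to 10.7 RPM) and lay above that of mouse 1047 (2.23 to 8.67 RPM).

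In undepleted libraries miR-34a-5p was read once in mouse 1047 before injection and once in mouse 1069 after it, and not at all in the other 4. A count of 0 allows up to 3 reads, which is 30.9 to 141 RPM in those 4 libraries and above the level seen in any depleted one. At the share measured in the depleted aliquot, 0.328 to 1.02 reads would fall in each undepleted library and 3.01 in all 6, against 2 observed. A difference in miR-34a-5p between aliquots or time points was not detectable at this depth.

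**Figure D1:**
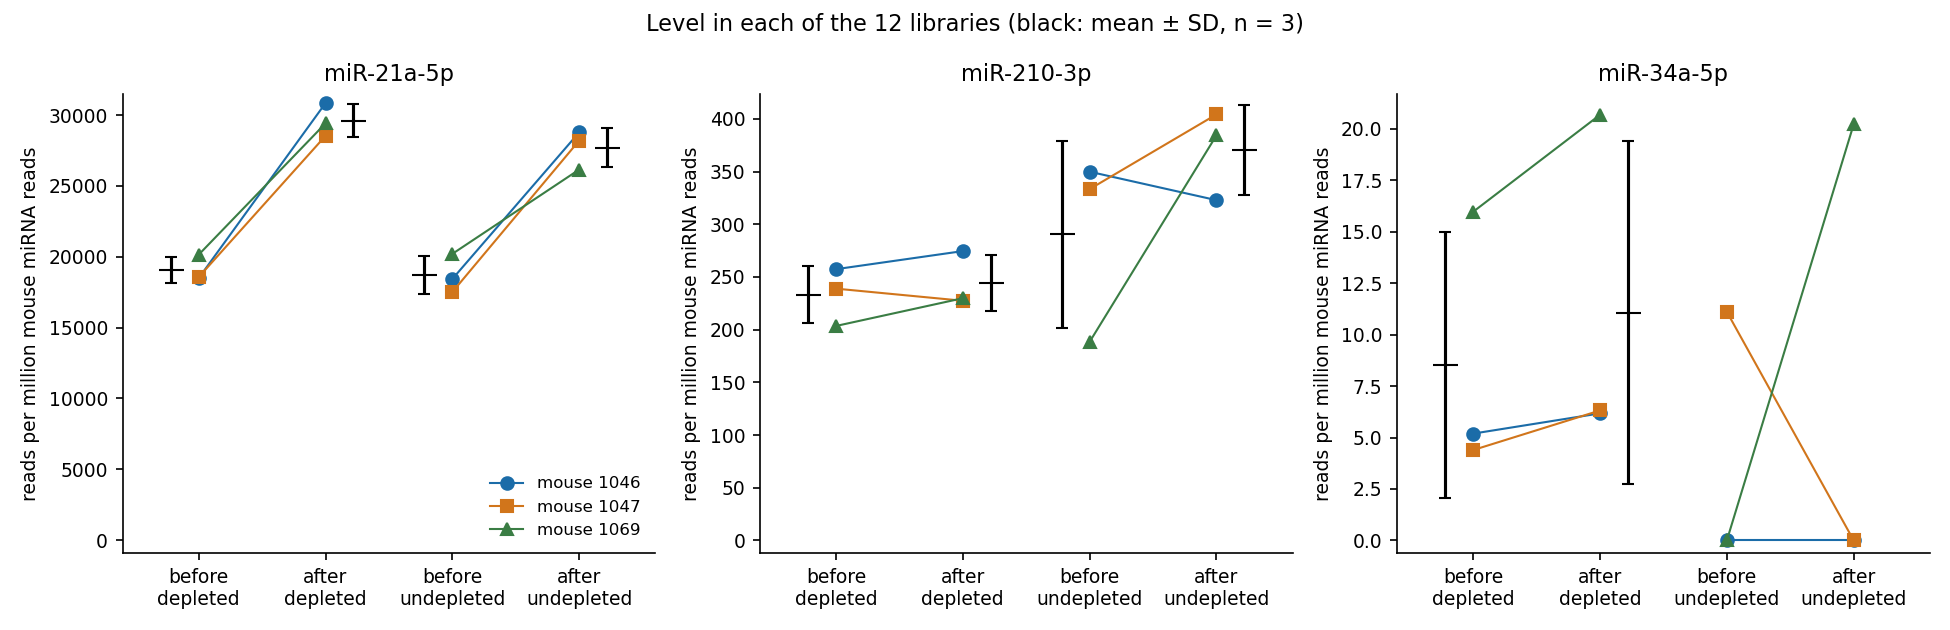
Level of each miRNA in the 12 libraries, in RPM on a linear axis from 0. Points are libraries, coloured by mouse and joined between time points of the same aliquot type, and black marks are the mean ± SD of 3 libraries, left out for miR-34a-5p in undepleted libraries, where single reads set the values. miR-21a-5p was higher after injection in all 3 mice and in both aliquots, whereas the time points of miR-210-3p and miR-34a-5p overlapped.

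The order of the 3 levels was the same in every depleted library, with miR-21a-5p above miR-210-3p and miR-210-3p above miR-34a-5p. Group means in depleted libraries before injection were 19068 ± 935 RPM for miR-21a-5p, 233 ± 27 RPM for miR-210-3p and 8.52 ± 6.47 RPM for miR-34a-5p (SD, n = 3 each). After injection they were 29600 ± 1166, 244 ± 27 and 11.1 ± 8.3 RPM (SD, n = 3 each). Neighbours in this order never overlapped. In undepleted libraries the order was also the same, at 18714 ± 1368 and 27710 ± 1380 RPM for miR-21a-5p and 291 ± 89 and 370 ± 42 RPM for miR-210-3p (SD, n = 3), with 0 or 1 read of miR-34a-5p.

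To ask whether the 3 miRNAs change while a tumor grows, the 2 time points were compared within the depleted and within the undepleted libraries. Testing was done with DESeq2 on all mouse miRNAs. Its normalised counts divide each library by a size factor, the median ratio of its miRNAs to their geometric mean, and therefore follow the typical miRNA rather than the total. A change was called where the adjusted p-value (Benjamini-Hochberg) was below 0.05 and the fold change was 2 or more in either direction. By this rule 33 of 310 tested mouse miRNAs (10.6%) were changed in depleted libraries and 12 of 108 (11.1%) in undepleted ones. In undepleted libraries 9 of these were higher and 3 lower, or 8 and 5 with TMM factors, a scaling by trimmed means, and without mouse 1069 the calls were 1 higher and 6 lower. None of the 3 miRNAs was among them.

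miR-21a-5p was higher after injection in the serum of 3 of 3 mice in both arms, but its change did not pass the test. In depleted libraries its normalised counts were 33351, 37215 and 30152 before and 44096, 41118 and 44014 after injection in mice 1046, 1047 and 1069. The groups did not overlap, which was also the case for 38.1% of the 310 tested miRNAs, and 20.3% were, like miR-21a-5p, entirely higher after injection. The log2 fold change was 0.34 (standard error 0.23, 95% interval -0.11 to 0.79, DESeq2 adjusted p = 0.294). Of the 310 tested miRNAs, 81 had a larger log2 fold change.

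In undepleted libraries the normalised counts of miR-21a-5p were 1116, 1131 and 989 before and 1546, 1521 and 1407 after injection. The log2 fold change of 0.45 was larger in relation to its error (standard error 0.20, 95% interval 0.06 to 0.84), with an unadjusted p of 0.0237 and a DESeq2 adjusted p of 0.0915. The groups did not overlap, as for 39.8% of the 108 tested miRNAs, with 22.2% entirely higher after injection. Both arms come from the same sera, so the likeness of their values is not a second observation of the change.

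The size of the difference in miR-21a-5p depended on how libraries were scaled. As a share of mouse miRNA reads, miR-21a-5p was 1.46-fold to 1.67-fold higher after injection in depleted libraries (geometric mean 1.55, n = 3 mice) and 1.29-fold to 1.61-fold higher in undepleted ones (geometric mean 1.48, n = 3). An exact permutation test of these shares gave p = 0.1 in each arm, the smallest value that 3 against 3 libraries allow. With the total mouse miRNA count of each library as its size factor, the log2 fold change became 0.61 in depleted (standard error 0.20, DESeq2 adjusted p = 0.0149) and 0.56 in undepleted libraries (standard error 0.16, DESeq2 adjusted p = 0.00519), past the adjusted p-value but under the 2-fold cut-off. With this scaling 55 of 327 tested miRNAs (16.8%) in depleted and 17 of 117 (14.5%) in undepleted libraries passed that p-value with higher counts after injection. That scaling raised the median log2 fold change of all tested miRNAs in depleted libraries from -0.09 to 0.14, and the calls there went from 15 higher and 18 lower to 32 higher and 5 lower.

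A miRNA enriched in red blood cells, miR-16-5p (MIMAT0000527), was lower after injection, the opposite direction to miR-21a-5p. It was the only one of 8 red cell markers whose accession could be matched to a name. Its share of mouse miRNA reads was 10.8% to 12.6% before and 5.62% to 7.71% after injection in depleted libraries, and 14.5% to 17.8% before and 7.14% to 10.4% after injection in undepleted ones. Its part in the result for miR-21a-5p was not tested.

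miR-210-3p showed no difference between time points that passed the test. In depleted libraries its normalised counts were 464, 479 and 305 before and 392, 328 and 344 after injection in mice 1046, 1047 and 1069. It was lower in 2 of 3 mice and the groups overlapped. The log2 fold change was -0.21 (standard error 0.28, 95% interval -0.76 to 0.33, DESeq2 adjusted p = 0.639), so the interval reaches neither a halving nor a doubling. In undepleted libraries the log2 fold change was 0.09 (standard error 0.42, 95% interval -0.73 to 0.92, DESeq2 adjusted p = 0.908), and here miR-210-3p was higher in 2 of 3 mice. This interval is narrowed by the prior of DESeq2 on fold changes. Without the prior the undepleted value was 0.12 (standard error 0.53), so a doubling is not excluded there. The direction turned with the scaling, since with total counts as size factors the log2 fold change in depleted libraries was 0.059.

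For miR-34a-5p the normalised counts in depleted libraries were 9.36, 8.81 and 23.9 before and 8.83, 9.10 and 31.0 after injection. The log2 fold change was 0.15 (standard error 0.51, 95% interval -0.84 to 1.15, DESeq2 adjusted p = 0.874), and the interval includes a doubling. It is narrowed by the prior of DESeq2, which pulls fold changes toward no change. Without the prior the log2 fold change was 0.24 (standard error 0.80), so a halving is not excluded either. With the prior, leaving out mouse 1069 took the log2 fold change to -0.0035. In undepleted libraries each time point held 1 read of miR-34a-5p in all, and no fold change is given.

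**Figure D2:**
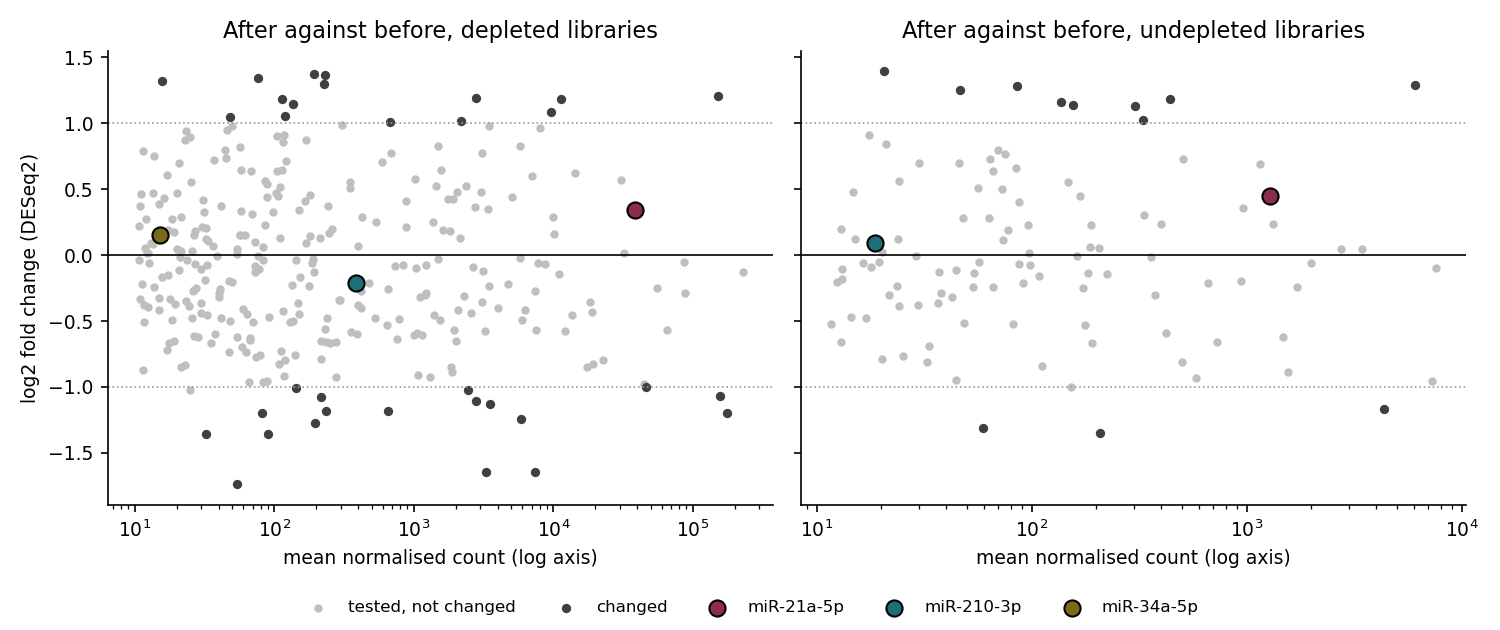
Mean normalised count (log axis) and DESeq2 log2 fold change after against before injection of each tested mouse miRNA, 310 in depleted (left) and 108 in undepleted libraries (right). Dark points are miRNAs called changed and dotted lines mark 2-fold. miR-21a-5p lies at 0.34 and 0.45 among the most counted miRNAs, and all members shown lie within the dotted lines.

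The count ratio of miR-21a-5p to miR-210-3p does not depend on any scaling between libraries. In depleted libraries it was 71.9, 77.7 and 99.0 before and 112, 125 and 128 after injection in mice 1046, 1047 and 1069. The ratio was thus higher after injection, with no overlap, in 3 of 3 mice, by 0.57 on the log2 scale (6.36 ± 0.24 before and 6.93 ± 0.10 after, SD, n = 3 each, exact permutation test, two-sided p = 0.1, the smallest possible). How many other pairs of miRNAs have ratios without overlap was not computed. Among single miRNAs, 38.1% of the 310 tested did not overlap by normalised counts, so such a separation is common here. In undepleted libraries the ratio was 52.7, 52.5 and 107 before and 89.1, 69.8 and 68.1 after injection. It was higher in 2 of 3 mice (difference 0.17 on the log2 scale, exact permutation test, two-sided p = 0.6), and the value of 107 rests on the 4 reads of miR-210-3p in mouse 1069.

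**Figure D3:**
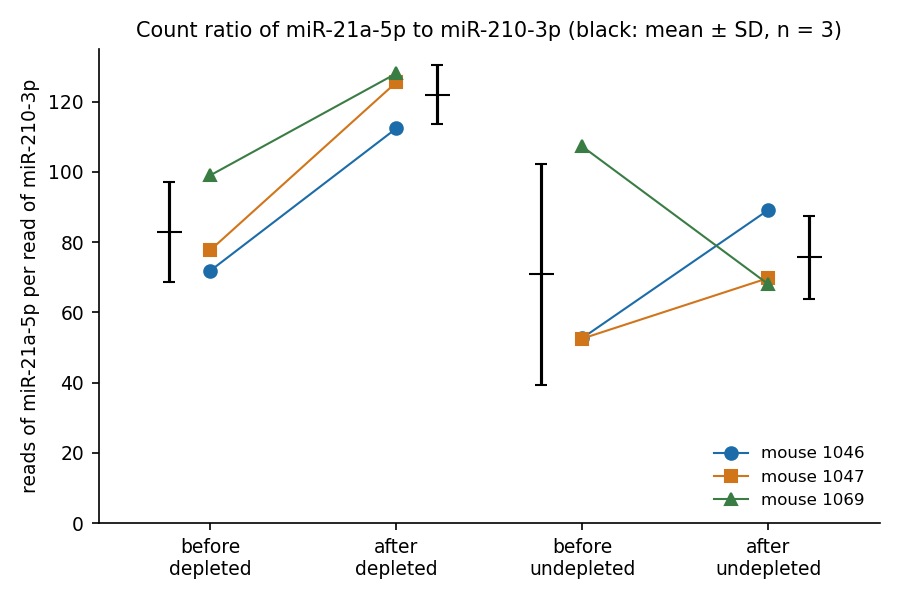
Reads of miR-21a-5p per read of miR-210-3p in each library, on a linear axis from 0. Points are libraries, coloured by mouse and joined between time points, with the mean ± SD of 3 libraries in black. In depleted libraries the ratio went from between 71.9 and 99.0 to between 112 and 128, while the undepleted time points overlapped.

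Next, the effect of depleting 5′ tRNA fragments was examined for the 3 miRNAs, with the aliquots of all sera in one fit. In this fit 32 of 383 tested mouse miRNAs (8.36%) were changed by the rule above, and 55 (14.4%) passed the adjusted p-value alone, 22 of them (5.74% of those tested) with lower counts upon depletion. None of the 3 was changed at 2-fold, and miR-210-3p passed the adjusted p-value.

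The share of miR-21a-5p hardly differed between aliquots. In the 6 sera the RPM of the depleted aliquot was 0.997-fold to 1.12-fold that of the undepleted one (geometric mean 1.04, higher in 5 of 6). The DESeq2 log2 fold change was -0.055 (standard error 0.074, 95% interval -0.20 to 0.09, adjusted p = 0.779). Its sign depended on the scaling and was positive with total counts (0.068), TMM factors (0.21) and edgeR (0.22).

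miR-210-3p was lower in the depleted aliquot of 5 of 6 sera. Its normalised counts in this fit were 82.2, 80.5 and 50.9 in depleted against 117, 117 and 50.4 in undepleted aliquots before injection, and 72.2, 61.7 and 66.6 against 98.4, 123 and 119 after it, in mice 1046, 1047 and 1069. The exception was the first serum of mouse 1069, whose undepleted aliquot held 4 reads. The log2 fold change was -0.64 (standard error 0.20, 95% interval -1.04 to -0.25, DESeq2 adjusted p = 0.0119), with 69.0 ± 11.8 normalised counts in depleted and 104 ± 28 in undepleted libraries (SD, n = 6 each). With the serum as a block it was -0.60 (adjusted p = 0.00962). With TMM factors it was -0.39 and no longer passed (DESeq2 adjusted p = 0.266). These factors raised the median log2 fold change of the tested miRNAs from -0.04 to 0.20. They took the calls from 19 higher and 13 lower to 32 higher and 10 lower. In edgeR the median was 0.95 over 874 tested miRNAs. There the log2 fold change of miR-210-3p was -0.38 and did not pass either (edgeR adjusted p = 0.707). Without mouse 1046 or 1047 it was -0.71 and -0.53, with DESeq2 adjusted p-values of 0.527 and 0.508.

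miR-34a-5p was counted 99 times in the 6 depleted and 2 times in the 6 undepleted libraries. Relative to all mouse miRNA reads this is a ratio of 1.89, with an exact 95% counting interval from 0.509 to 15.8, so neither a loss nor a gain upon depletion can be seen. The tested difference in DESeq2 had an adjusted p of 0.869.

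**Figure D4:**
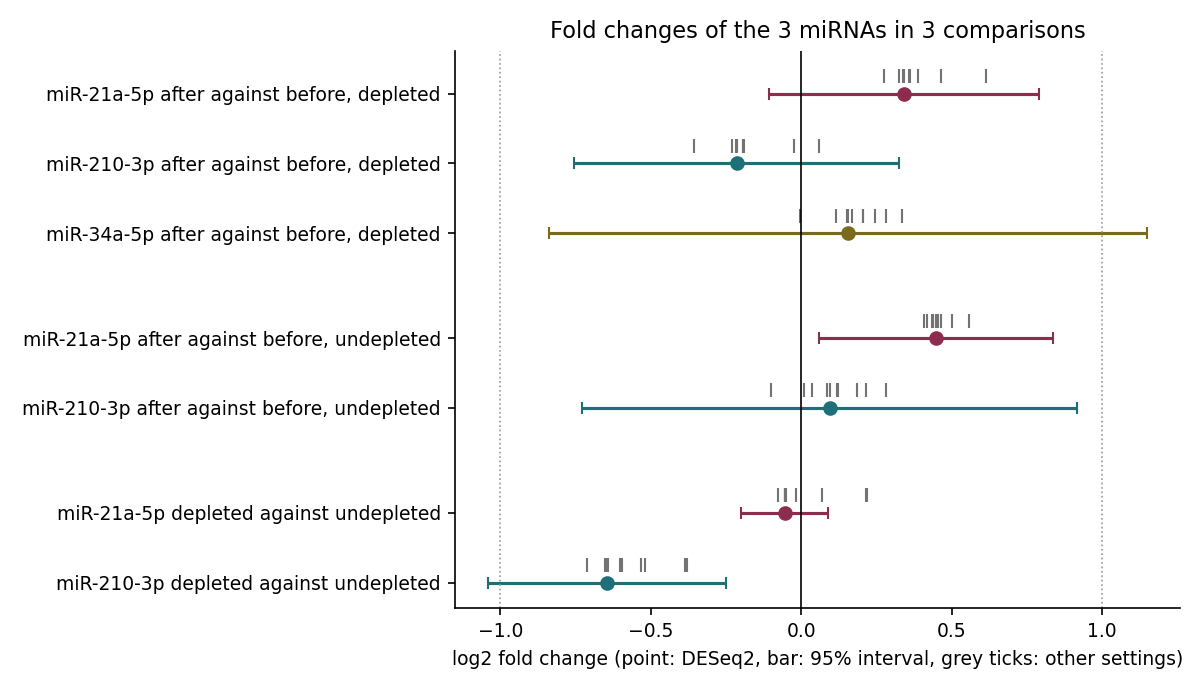
DESeq2 log2 fold changes of the 3 miRNAs with 95% intervals in the 3 comparisons, with grey ticks for the value under each other setting and dotted lines at 2-fold. Comparisons of miR-34a-5p that include undepleted libraries are left out, since these held 2 reads. The interval of miR-210-3p between aliquots, from -1.04 to -0.25, lies below 0.

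Whether the change after injection differed between arms was tested with an interaction of time point and depletion on all 12 libraries. It was -0.02 for miR-21a-5p (log2 scale, standard error 0.16, 95% interval -0.33 to 0.30) and -0.21 for miR-210-3p (standard error 0.43, 95% interval -1.06 to 0.64), both with a DESeq2 adjusted p of 0.998. Of 874 mouse miRNAs 0 passed (0.00%) in DESeq2 and also 0 in edgeR, and 3 had an unadjusted DESeq2 p under 0.05. For miR-34a-5p the standard error of 2.13 leaves the interaction undetermined. This fit had no term for the serum that 2 aliquots share. With the serum as a block the interaction was -0.024 for miR-21a-5p (standard error 0.098) and -0.31 for miR-210-3p (standard error 0.39). Again 0 miRNAs passed, and 8 had an unadjusted DESeq2 p under 0.05. The absence of calls does not show that the arms are alike.

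The same reads were also counted by the authors against human miRNAs, which bears on whether reads can be given to the human tumor or the murine host. The human entry closest to miR-210-3p, MIMAT0000267, had identical counts in all 12 libraries, 2510 reads in sum, and no other human entry did. MIMAT0000255 likewise had the 101 reads of miR-34a-5p, library by library. For these miRNAs the counts of the 2 tables thus cannot tell tumor from host.

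The human entry closest to miR-21a-5p, MIMAT0000076, held 3 to 561 reads fewer than the mouse entry in 12 of 12 libraries. In sum it had 255598 reads against 257628, which is 0.788% fewer. The deficit was 0.428% to 0.991% of miR-21a-5p reads before injection and 0.205% to 0.918% after it, with overlapping ranges. As a share of the human table, MIMAT0000076 in depleted libraries was 0.970% ± 0.111 at the first and 1.95% ± 0.13 at the second time point (SD, n = 3 each), and in undepleted ones 1.03% ± 0.18 and 1.86% ± 0.05 (SD, n = 3 each). The human tables have other totals, 34472 to 3854909 counts, so the 2 shares of miR-21 are not on one scale. Before any human cells were injected, this human entry already held 24758, 33469 and 18831 reads in depleted libraries of mice 1046, 1047 and 1069. Its higher share after injection therefore cannot be given to tumor or host from these counts.

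Finally, the mouse miRNAs with the most similar pattern to each member were sought in the 6 depleted libraries, among those with a mean of at least 50 normalised counts. Likeness was the root mean square difference between log2(normalised count + 1) values, each centred on its own mean. For miR-21a-5p the nearest were MIMAT0000127, MIMAT0004631 and MIMAT0000532, at 0.09, 0.10 and 0.12, against a median of 0.47 over 212 candidates. For miR-210-3p they were MIMAT0000649, MIMAT0004825 and MIMAT0000151, at 0.11, 0.11 and 0.12, against a median of 0.47. The nearest to miR-34a-5p, MIMAT0000538, MIMAT0004899 and MIMAT0000132, were at 0.42 to 0.49, against a median of 0.84 over 213 candidates. The 3 nearest are the smallest of all distances to a member, so they lie below the median by construction. A miRNA with the same value in all 6 libraries would be at 0.20 from miR-21a-5p, 0.25 from miR-210-3p and 0.71 from miR-34a-5p. All libraries share mice and scaling, and these distances describe 6 libraries only.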

How the data were processed

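Small RNA was sequenced from 12 serum libraries (TruSeq small RNA kit, 15 PCR cycles). The authors trimmed adaptors with Cutadapt 1.8.1, discarded reads shorter than 15 bases or without adaptor, removed low-quality reads (FASTX-Toolkit), mapped with Bowtie 1.1.2 without mismatches and assigned reads by miRBase coordinates on GRCm38/mm10 or GRCh37/hg19. The values are raw read counts per mature miRNA, deposited as 1 mouse and 1 human table per library. How reads that match several loci were counted is not given in the sources used here.

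The members and all lists were chosen with earlier results of these data known. Named were the 3 members, their closest human entries by counts, and the 3 most similar mouse miRNAs each. Lists of relatives, of p53-linked, hypoxia-linked and tumor-promoting miRNAs and of cell type markers, fixed by name, could not be joined to the accessions, except for miR-16-5p, which the study identifies and which is the result of the red cell and p53-linked lists. Groups and mouse numbers were taken from the labels.

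Counts were fitted with DESeq2 1.42.0 in R 4.3.3 (Wald test, prior on fold changes except for the interaction, independent filtering, all miRNAs with at least 1 read), with time point as the only term within an arm, and time point and depletion across arms. Intervals are the log2 fold change ± 1.96 standard errors. The fits were tested on simulated counts with changes larger than those of the 3 miRNAs and with libraries drawn independently. The simulation therefore does not show whether changes as small as theirs would be found. Alternatives were edgeR 4.0.16, other scalings, a minimum of 4 counts in 3 or more libraries, no prior, no fold cut-off, a replicate block (the mouse within an arm, the serum across arms) and leaving out each mouse. Other values were computed in Python 3.11.15 with SciPy 1.17.1.

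The pairing comes from the labels, since both sera of a number are from the same mouse and both aliquots from the same serum. Deviations from the group mean correlated with a mean r of 0.549 between aliquots of a serum (115 miRNAs, 6 pairs), and of -0.152 in depleted (213 miRNAs, 3 pairs) and -0.214 in undepleted libraries (68 miRNAs, 3 pairs) between sera of a mouse.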

Additional observations from a re-analysis of the deposited data

How the results depend on the processing

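For the 3 miRNAs no alternative made a call at 2-fold. miR-21a-5p stayed higher after injection under all 10 alternatives in each arm, with log2 fold changes of 0.27 to 0.61 in depleted and 0.41 to 0.56 in undepleted libraries, and its lowest adjusted p-values were those with total counts. Without mouse 1069 the undepleted value was 0.42 (DESeq2 adjusted p = 0.0403). miR-210-3p was lower upon depletion under all 10 alternatives, and without the 2-fold cut-off its value of -0.64 counted as a call. The alternative without the cut-off changes calls only. Its fold changes are those of the main fit, so it is no check of direction. The following signs turned, and the cause was not tested. With total counts miR-210-3p after injection in depleted libraries became 0.059, miR-21a-5p upon depletion 0.068 and its interaction 0.055. With TMM factors and with edgeR miR-21a-5p upon depletion was 0.21 and 0.22. When mice were left out in turn, the values after injection ranged from -0.0035 to 0.21 for miR-34a-5p in depleted libraries, and from -0.10 to 0.28 for miR-210-3p and from -0.033 to 0.062 for miR-34a-5p in undepleted ones. The interactions ranged from -0.055 to 0.069 for miR-21a-5p and from -0.72 to 1.12 for miR-34a-5p. For miR-34a-5p in undepleted libraries edgeR gave 0.042, a fitted value that rests on 2 reads.

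Without the 2-fold cut-off the counts of changed mouse miRNAs moved to 52 in depleted and 21 in undepleted libraries after injection, and to 55 upon depletion. Leaving out each mouse gave 11 to 32, 1 to 11 and 19 to 33, with the lowest numbers after injection without mouse 1047 (11 and 1), and with 19 and 7 without mouse 1069 (5 higher and 14 lower in depleted, 1 higher and 6 lower in undepleted libraries), and 19 upon depletion without mouse 1046. With the replicate block 26, 11 and 27 miRNAs were changed, and the block changed no call of the 3 miRNAs. Size factors without red cell markers were not run, since these could not be matched to accessions. Depth limits miR-34a-5p throughout and miR-210-3p in undepleted libraries.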
